A study of Mus musculus with 6 samples.

Results

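Genes for the protein subunits of the mitochondrial ribosome were examined in tumour cells of KPCY mice. The members were the protein-coding genes whose symbol begins with Mrpl or Mrps followed by a number. These were 78 of the 25978 genes in the table: 51 of the large subunit (Mrps18a and Mrps30 among them, by where their proteins sit), 26 of the small subunit, and Mrps36, which carries the symbol but whose protein is a subunit of the oxoglutarate dehydrogenase complex. All 78 passed the filter on low values. A further 4 processed pseudogenes with matching symbols are not members.

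KPCY mice model pancreatic cancer. All 6 libraries came from mice of 1 genotype, which includes Pdx1-Cre, Trp53fl/fl and Rosa26LSL-YFP, on a C57BL/6 background, used at 5 to 7 weeks of age. Pdx1-Cre acts in the pancreatic lineage, so that the yellow fluorescent protein (YFP) marks tumour cells and also any normal pancreatic cells that descend from it. From primary tumours, cells with YFP were split by the epithelial surface protein EpCAM into EpCAM+ cells (3 libraries) and EpCAM- cells (3 libraries). Nothing in the labels says whether an EpCAM+ and an EpCAM- library with the same number came from 1 tumour.

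Mitochondria carry their own small genome, and its few protein-coding genes encode core subunits of the respiratory chain. These proteins are made on a ribosome inside the organelle whose RNA comes from mitochondrial DNA and whose proteins are all encoded in the nucleus and imported. The large subunit joins amino acids and holds the exit tunnel, and the small subunit reads the messenger RNA. Part of the proteins descend from bacterial ribosomal proteins, and the rest were added in mitochondria. In the pancreas, acinar cells, islet cells and tumour cells all depend on mitochondria, to differing degrees, for energy and for precursors of growth.

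The sort was visible in the data. Epcam stood at log2 levels of 14.9 to 15.1 in EpCAM+ and of 7.22 to 8.42 in EpCAM- cells. All 8 epithelial markers fell in EpCAM- cells, and 7 of 9 fibroblast markers rose while 1, Col14a1, fell. The EpCAM+ libraries also held more RNA of acinar markers (0.210 to 0.447% of the summed back-transformed values, against 0.00144 to 0.00184%), and 7 of 8 passed the test. Macrophage markers, all 8 of which passed, summed to 0.00433 to 0.0216% in EpCAM+ and 0.00134 to 0.00230% in EpCAM- libraries. Islet markers, 7 of 7 of which passed, were likewise lower in EpCAM- cells. In sorted populations of this kind, fewer cells of a type and less RNA per cell cannot be told apart. The part these markers have in any result below was not tested. Within a group, libraries correlated across tested genes at r of 0.977 to 0.989, and between groups at 0.854 to 0.883. EpCAM- replicate 1 stood apart in the members, as described below, and the counts and medians of the members are given with and without it.

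Of the mitochondrial ribosomal protein genes, 11 of 78 passed the test between EpCAM- and EpCAM+ cells, 8 of them lower and 3 higher in EpCAM- cells. Lower were Mrpl46, Mrps34, Mrps31, Mrpl48, Mrpl44, Mrpl17, Mrpl11 and Mrps35, and higher were Mrpl20, Mrpl45 and Mrps22. The test was limma's, with a Benjamini-Hochberg adjusted p under 0.05 over all 15783 genes tested. The 11 are 14.1% of the members, against 43.4% of all tested genes. By direction, 3.85% of members were called higher, against 20.3% of all genes, and 10.3% were called lower, against 23.1%. Every fold change is given as log2, EpCAM- minus EpCAM+, and a negative value is lower in EpCAM- cells.

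**Figure D1:**
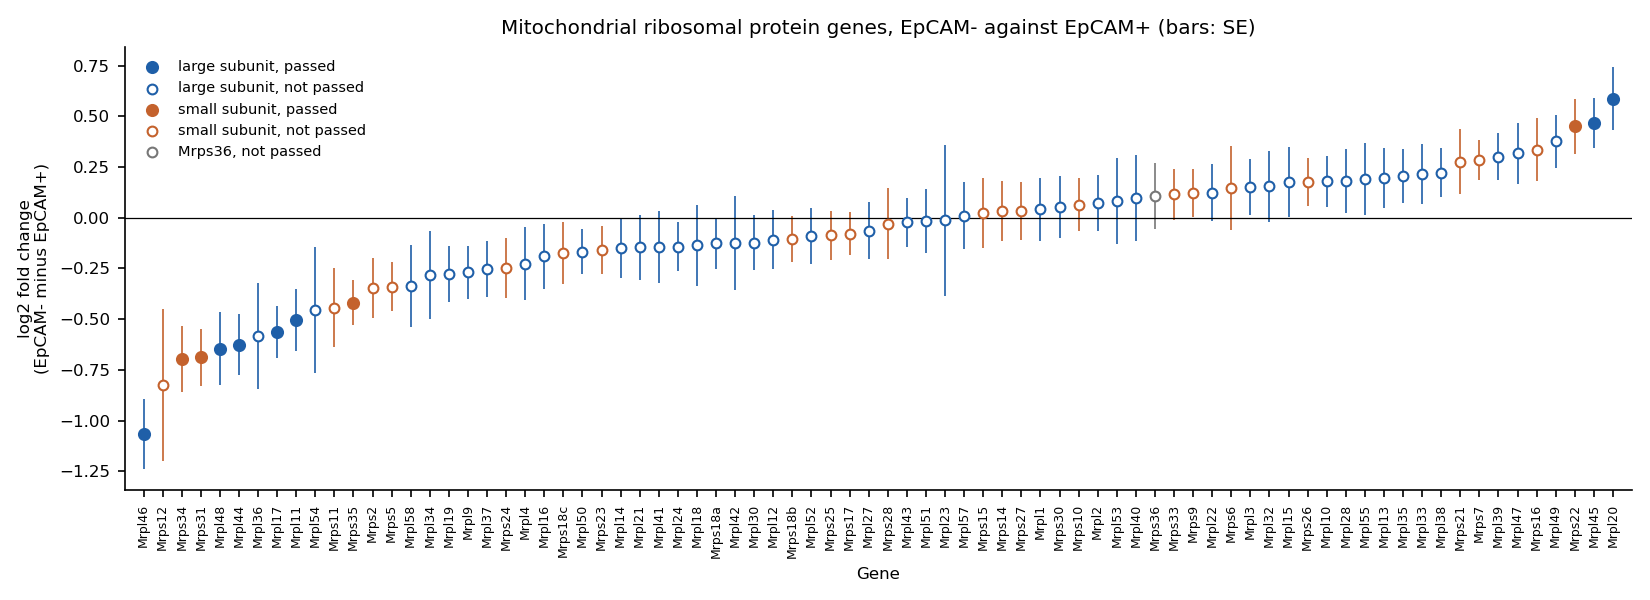
Log2 fold change (EpCAM- minus EpCAM+) of each of the 78 members, ordered by size, with bars of 1 SE. Filled points passed the test, open points did not, and colours give the subunit. Mrpl46 lies at -1.07 and Mrpl20 at 0.59, and most members lie near 0.

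Differences among the members were small. Their median log2 fold change was -0.05 (all tested genes: 0.004), and the median size of the change regardless of sign was 0.177, against 0.457 for all tested genes. The median fold change with its sign was -0.16 without EpCAM- replicate 1 and took the opposite sign, 0.03, without EpCAM- replicate 2. The quartiles of the members were -0.24 and 0.15, and those of all tested genes -0.52 and 0.42. Only Mrpl46 changed by at least 1 on the log2 scale, which is 1.28% of the members, against 25.8% of all genes. The signs were mixed, with 35 members above 0 and 43 below. The standard errors ran from 0.097 to 0.374, with a median of 0.148, and the smallest change among those that passed was that of Mrps35, at -0.42. A member that missed the threshold is not shown to be equal in both groups.

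The groups did not overlap for 21 members (26.9%, against 56.3% of all tested genes). Of these, 9 were higher in EpCAM- cells (11.5%, against 27.1%) and 12 lower (15.4%, against 29.2%). With 3 libraries against 3, an exact permutation test of a single gene cannot give a two-sided p below 0.1. The members' median within-group SD, pooled over the EpCAM+ and EpCAM- groups, was 0.175, against 0.222 for all tested genes. Members also had a higher median level (9.09, against 8.70), and the pooled value does not show how the spread differs between the groups.

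Both subunits had members that passed in each direction. In the large subunit, 2 of 51 members rose and 5 fell, with a median of -0.06. In the small subunit, 1 of 26 rose and 3 fell, with a median of -0.05. Both sets are below the shares of all tested genes given above, with 13.7% of the large-subunit and 15.4% of the small-subunit members called. Without EpCAM- replicate 1 the large subunit had 2 higher and 12 lower (median -0.20). The small subunit then had 0 higher and 6 lower (median -0.16, 10 members at an unadjusted p under 0.05 in limma). The shares called lower were 23.5% and 23.1%, near the 25.2% of all tested genes in that setting. Those called higher were 3.92% and 0%, against 21.1%. By ancestry, none of the 16 small-subunit members with a bacterial counterpart passed limma's test (2 at an unadjusted p under 0.05), and 4 of the 10 found only in mitochondria did (Mrps22 higher; Mrps31, Mrps34 and Mrps35 lower), a share of 40% that is near the 43.4% of all tested genes. Without EpCAM- replicate 1, 3 of the 16 (18.8%) and 3 of the 10 (30%) passed, all of them lower. Of all tested genes, 46.3% were then called, and 25.2% were called lower. In the large subunit 3 of 30 members with a bacterial counterpart passed, Mrpl20 higher and Mrpl11 and Mrpl17 lower. Of 21 mitochondria-specific members 4 did, Mrpl45 higher and Mrpl44, Mrpl46 and Mrpl48 lower. These shares, 10% and 19.0%, stand against 43.4% of all tested genes. Without EpCAM- replicate 1 they were 6 of 30 (20%) and 8 of 21 (38.1%), against 46.3%. The difference between these classes was not tested.

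In the members, EpCAM- replicate 1 differed from the other EpCAM- libraries. It had the highest level of its group for 73 of the 78 members (93.6%), while it was the highest for 42.0% of all tested genes. EpCAM- replicate 3 was highest for the other 5 members and replicate 2 for none. Among the EpCAM+ libraries the corresponding counts were 27, 18 and 33. The median log2 level of the members was 9.17, 9.04 and 9.15 in EpCAM+ replicates 1 to 3, and 9.35, 8.97 and 9.02 in the EpCAM- ones. EpCAM- replicate 1 was thus above every EpCAM+ library in this median, and the other EpCAM- libraries were below every one. Summed, the members made up 0.183, 0.166 and 0.181% of the back-transformed values in EpCAM+ cells and 0.204, 0.154 and 0.172% in EpCAM- cells, so the groups overlapped.

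**Figure D2:**
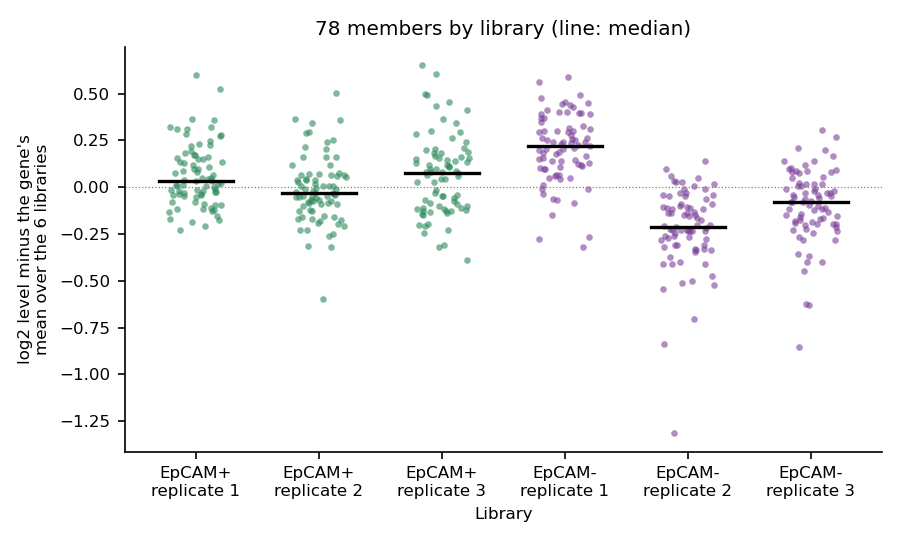
Level of each of the 78 members in each library, as its log2 level minus that gene's mean over the 6 libraries, with a line at the median. The EpCAM- replicate 1 cloud sits above 0, and those of EpCAM- replicates 2 and 3 sit below it.

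Leaving that library out moved the balance of the calls. Without EpCAM- replicate 1, 18 members were lower and 2 higher. These are 25.6% of the members, against 46.3% of all genes in the same setting (lower 23.1% against 25.2%, higher 2.56% against 21.1%). Of the 11 members called with all libraries, 10 remained, and Mrps22 was lost at an adjusted p of 0.0661. Added to the lower side were Mrpl54, Mrpl36, Mrps11, Mrpl58, Mrpl34, Mrps5, Mrpl42, Mrpl9, Mrpl37 and Mrps24. Among them, Mrpl58 is the peptidyl-tRNA hydrolase built into the large subunit, which releases stalled chains. Leaving out EpCAM- replicate 2 instead gave 5 lower and 4 higher, and leaving out EpCAM- replicate 3, EpCAM+ replicate 1 or EpCAM+ replicate 2 each gave 5 lower and 1 higher. Without EpCAM+ replicate 3, 3 were lower and 0 higher, with 11 members at an unadjusted p under 0.05 in limma. In these 5 settings 31.6 to 38.3% of all genes were called. All 11 members kept their sign under each of the 18 alternatives that were run, but only Mrpl46 also kept passing the test in all of them.

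Among large-subunit proteins, Mrpl46 and Mrpl48 belong to the central protuberance, the knob that faces the small subunit and touches transfer RNA. Mrpl46 (chromosome 7, 78775236 to 78783531 in GRCm38, the build of all gene positions given here) had log2 levels of 8.0, 7.91 and 7.90 in EpCAM+ cells and 7.14, 6.70 and 6.77 in EpCAM- cells. Every EpCAM- library lay below every EpCAM+ library by more than the range of either group. The change was -1.07 ± 0.17 (SE), an EpCAM- to EpCAM+ ratio of 0.477, with a limma adjusted p of 0.00268. Over the alternatives the adjusted p ran from 0.000767 to 0.0420.

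Mrpl48 (chromosome 7, 100545751 to 100608301) was at 8.72, 8.69 and 8.87 in EpCAM+ cells and at 8.43, 8.10 and 7.81 in EpCAM- cells. The groups did not overlap, and EpCAM- replicate 1 came closest to the EpCAM+ libraries. It fell by 0.65 ± 0.18 on the log2 scale (limma adjusted p = 0.0251). This call was lost without any 1 of EpCAM+ replicates 1, 2 or 3 or EpCAM- replicates 2 or 3, with a highest adjusted p of 0.141 over the alternatives.

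Mrpl17 lies near the end of the polypeptide exit tunnel, and Mrpl45 sits at its mouth and anchors the ribosome to the inner membrane, where the new proteins are inserted. These neighbours moved in opposite directions. Mrpl17 (chromosome 7, 105803206 to 105811099) had levels of 9.63, 9.78 and 9.67 in EpCAM+ and 9.34, 9.0 and 9.05 in EpCAM- libraries, with no overlap. Its change was -0.56 ± 0.13 (limma adjusted p = 0.0113). Mrpl45 (chromosome 11, 97315716 to 97329920) was higher in EpCAM- cells, at 10.52, 10.15 and 10.38 against 9.91, 9.94 and 9.79, and again the groups were separate. Its change was 0.47 ± 0.12 (limma adjusted p = 0.0205). Without EpCAM+ replicate 1, EpCAM+ replicate 3 or EpCAM- replicate 3 it did not pass.

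Mrpl20 belongs to a family whose bacterial member binds ribosomal RNA early in assembly of the large subunit. It showed the greatest rise among the members (chromosome 4, 155802878 to 155809975). The EpCAM+ libraries were at 9.21, 9.07 and 9.0 and the EpCAM- libraries at 9.97, 9.49 and 9.58. The lowest EpCAM- library stood above the highest EpCAM+ library, and replicate 1 was the highest of all. The change was 0.59 ± 0.15 (limma adjusted p = 0.0201), and 0.44 with an adjusted p of 0.0244 without EpCAM- replicate 1. It did not pass without EpCAM+ replicate 2 or without EpCAM+ replicate 3.

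Mrpl44 has a fold like that of ribonuclease III and is linked to human mitochondrial cardiomyopathy. Its levels were 8.59, 8.39 and 8.64 in EpCAM+ and 7.95, 7.73 and 8.07 in EpCAM- libraries (chromosome 1, 79776018 to 79781445). Here EpCAM- replicate 3, not replicate 1, was the highest of its group, and the groups did not overlap. The change was -0.63 ± 0.15 (limma adjusted p = 0.0144), lost without EpCAM+ replicate 1 or EpCAM+ replicate 3.

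Mrpl11 lies at the base of the stalk that recruits translation factors. It was at 9.10, 9.03 and 9.23 in EpCAM+ and 8.88, 8.45 and 8.51 in EpCAM- libraries (chromosome 19, 4962147 to 4966999). The gap between the groups was narrow at EpCAM- replicate 1. It changed by -0.51 ± 0.15 (limma adjusted p = 0.0324), and this was lost without any 1 of the libraries other than EpCAM- replicate 1. The stalk proteins that sit on it did not pass: Mrpl10 changed by 0.18 ± 0.13 and Mrpl12 by -0.11 ± 0.14, and without EpCAM- replicate 1 by 0.0747 and -0.25.

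In the small subunit, Mrps34 and Mrps31 fell most among those that passed. Mrps34, a mitochondria-specific protein linked to a human mitochondrial disease, had levels of 8.68, 8.61 and 8.87 in EpCAM+ and 8.29, 7.86 and 7.93 in EpCAM- libraries (chromosome 17, 24895116 to 24897502). Mrps31, also mitochondria-specific, was at 9.04, 8.73 and 8.81 in EpCAM+ and 8.19, 8.04 and 8.28 in EpCAM- libraries (chromosome 8, 22411361 to 22429665). Neither gene's groups overlapped. Mrps34 changed by -0.70 ± 0.16 (limma adjusted p = 0.0125), which missed the threshold (0.0565) when EpCAM+ replicate 3 was left out, and Mrps31 by -0.69 ± 0.14 (limma adjusted p = 0.00735).

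Mrps35 was among the steadiest members within groups. Its levels were 9.39, 9.59 and 9.54 in EpCAM+ and 9.15, 9.02 and 9.10 in EpCAM- libraries (chromosome 6, 147042764 to 147073991). The groups were separate, with a change of -0.42 ± 0.11 (limma adjusted p = 0.0199), which was lost without any 1 of EpCAM+ replicates 2 or 3 or EpCAM- replicates 2 or 3. Mrps22, whose human counterpart is linked to mitochondrial disease, was higher in EpCAM- cells, at 9.34, 8.98 and 9.28 against 8.80, 8.78 and 8.67 (chromosome 9, 98588730 to 98601660). No EpCAM- library fell into the EpCAM+ range. Its change of 0.45 ± 0.14 (limma adjusted p = 0.0333) did not pass without any 1 of EpCAM+ replicates 1, 2 or 3 or EpCAM- replicates 1 or 3.

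Some members missed the threshold with large or nearly passing values. Mrps12, a protein of the decoding centre, had levels of 8.13, 8.21 and 8.46 in EpCAM+ and 7.97, 6.54 and 7.81 in EpCAM- libraries. EpCAM- replicate 2 was far below the rest, and the change of -0.83 ± 0.37 had an adjusted p of 0.116 in limma. Without that library it was -0.37. Mrpl36 changed by -0.58 ± 0.26 (limma adjusted p = 0.114), and by -0.31 without EpCAM- replicate 2. Just outside the threshold were Mrps7 (0.28 ± 0.10, adjusted p of 0.0503 in limma), Mrpl49 (0.38 ± 0.13, 0.0531) and Mrps5 (-0.34 ± 0.12, 0.0588). Mrps7 passed in 5 of the 18 alternatives, Mrpl49 in 6 and Mrps5 in 3.

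**Figure D3:**
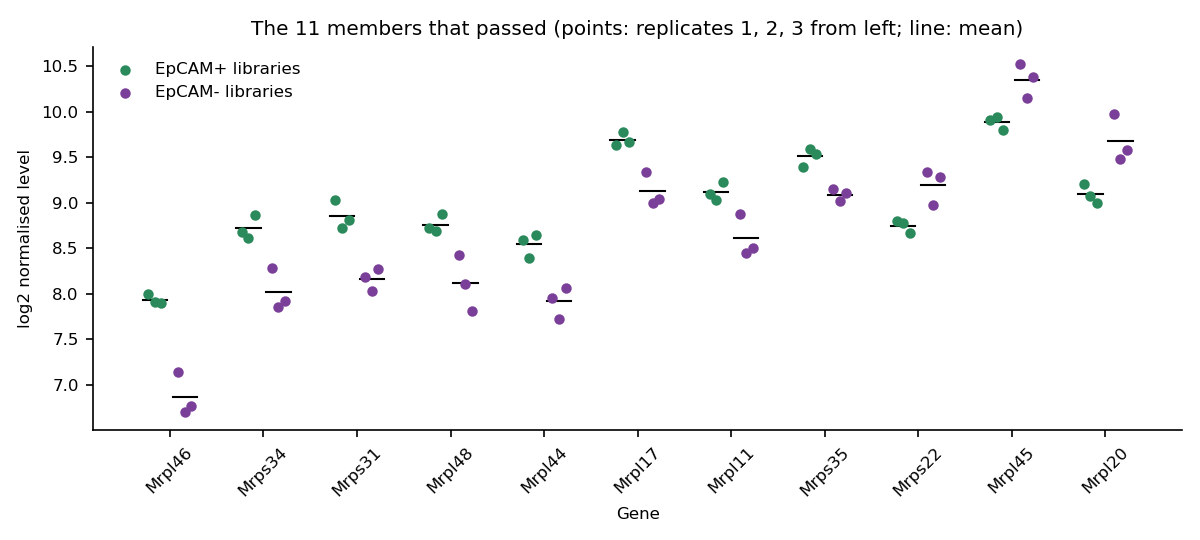
Log2 level in each library of the 11 members that passed, in order of their change from Mrpl46 at the left to Mrpl20 at the right, with replicates 1, 2 and 3 from left to right and a line at the group mean. In none of the 11 do the EpCAM+ and EpCAM- points overlap, and Mrpl46 shows the widest gap (7.94 against 6.87 on average).

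The bases before the start sites of 4 of these genes are printed because these genes passed in opposite directions, Mrpl17 and Mrpl48 lower and Mrpl45 and Mrps22 higher, and because 2 known binding motifs occur in them. Sequences are RefSeq's, in GRCm38.p6, each the 250 bases before the RefSeq start, 5′ to 3′ on the strand of the gene. Capitals mark the motif of nuclear respiratory factor 1 (NRF1), which is GCGCA, any base and GCGC, and CCGGAAG, an ETS motif bound by GA-binding protein, or their reverse complements. Mrpl17 is chr7:105811088-105811337 on the minus strand, Mrpl48 is chr7:100583131-100583380 on the minus strand, Mrpl45 is chr11:97315466-97315715 on the plus strand, and Mrps22 is chr9:98601680-98601929 on the minus strand.
Mrpl17: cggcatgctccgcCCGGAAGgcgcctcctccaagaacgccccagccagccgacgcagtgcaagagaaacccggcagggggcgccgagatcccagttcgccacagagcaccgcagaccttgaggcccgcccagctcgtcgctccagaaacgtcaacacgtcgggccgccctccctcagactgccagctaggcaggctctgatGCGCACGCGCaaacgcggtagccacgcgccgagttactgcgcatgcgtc
Mrpl48: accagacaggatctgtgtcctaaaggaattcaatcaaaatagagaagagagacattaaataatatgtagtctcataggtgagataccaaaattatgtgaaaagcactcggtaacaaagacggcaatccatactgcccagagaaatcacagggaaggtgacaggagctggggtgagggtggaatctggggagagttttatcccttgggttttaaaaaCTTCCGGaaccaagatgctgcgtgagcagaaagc
Mrpl45: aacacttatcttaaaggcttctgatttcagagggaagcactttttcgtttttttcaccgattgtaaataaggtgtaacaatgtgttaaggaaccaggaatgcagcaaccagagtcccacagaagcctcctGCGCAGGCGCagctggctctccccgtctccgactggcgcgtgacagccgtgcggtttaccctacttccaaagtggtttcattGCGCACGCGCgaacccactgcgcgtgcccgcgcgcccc
Mrps22: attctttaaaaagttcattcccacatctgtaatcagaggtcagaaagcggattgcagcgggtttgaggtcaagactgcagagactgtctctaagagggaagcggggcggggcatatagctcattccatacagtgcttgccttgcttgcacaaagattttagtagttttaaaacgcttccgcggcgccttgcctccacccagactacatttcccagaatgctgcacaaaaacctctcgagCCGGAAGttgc
Mrpl17 held both motifs, Mrpl45 held the NRF1 motif at 2 places, and Mrpl48 and Mrps22 each held an ETS motif near the start. Since the genes were picked by direction and motif, these 4 cannot show how motif and direction relate, which was not tested.

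Over all members, these motifs were counted on both strands in windows from 250 bases before to 50 after the start, and 69 of the 78 members had such a window. The NRF1 motif was present in 13 (18.8%), against 5.19% of 27025 genes. Those 27025 include genes outside the 15783 tested here, while every member was tested. The sets are thus not matched for expression, and the shares do not show a motif to be particular to the members. The ETS motif CCGGAAG was present in 26 (37.7%, against 9.93%) and AAGATGGC, a motif of YY1, in 12 (17.4%, against 3.19%). The E-box CACGTG, bound by Myc with Max among others, was in 5 (7.25%, against 8.09%), and CCAAT was in 27 (39.1%, against 41.1%). None of these motifs contains another, and a match is a run of letters, not a shown binding site. The median log2 fold change of members with a motif, against members without it, was -0.04 against -0.01 for CCGGAAG and 0.01 against -0.04 for the NRF1 motif. It was -0.12 against -0.02 for AAGATGGC, -0.17 against -0.02 for CACGTG and 0.05 against -0.08 for CCAAT. With EpCAM- replicate 1 left out these pairs were, in the same order, -0.14 and -0.16, -0.12 and -0.15, -0.30 and -0.13, -0.29 and -0.14, and -0.09 and -0.20. None of these differences was tested. Of the members that passed, 9 had such a window. Among these, Mrpl17, Mrpl48 and Mrps22 held CCGGAAG, and Mrpl17, Mrpl44 and Mrpl45 held the NRF1 motif. Mrpl11, Mrpl20 and Mrps31 held CCAAT, Mrpl20 held CACGTG, and none held AAGATGGC.

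Members on chromosome 7 were lower as a set than those elsewhere. The chromosome holds 6 of them: Mrpl46, Mrps12, Mrpl48, Mrpl17, Mrps11 and Mrpl23. Their median log2 fold change was -0.60, all 6 were negative, and 3 passed, all of them lower. Of the 6, Mrpl23 was at -0.01 ± 0.37 and took a positive sign in some of the alternatives. The 72 members on other chromosomes had a median of -0.02, with 5 lower and 3 higher. These are 6.94% and 4.17%, against 20.9% and 21.5% of all tested genes off chromosome 7. Without EpCAM- replicate 1, 4 of the 6 were lower (median -0.74), 66.7% against 57.8% of all chromosome 7 genes. Of the 72, 14 were then lower and 2 higher (median -0.13). These are 19.4% and 2.78%, against 22.5% and 22.4% of all genes off chromosome 7. Chromosome 7 as a whole was lower too: its 1218 tested genes had a median of -0.59, 82.2% were negative and 49.5% were called lower, against 23.1% of all tested genes. Medians of the other nuclear chromosomes ran from -0.27 (chromosome 10) to 0.16 (chromosome 3).

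**Figure D4:**
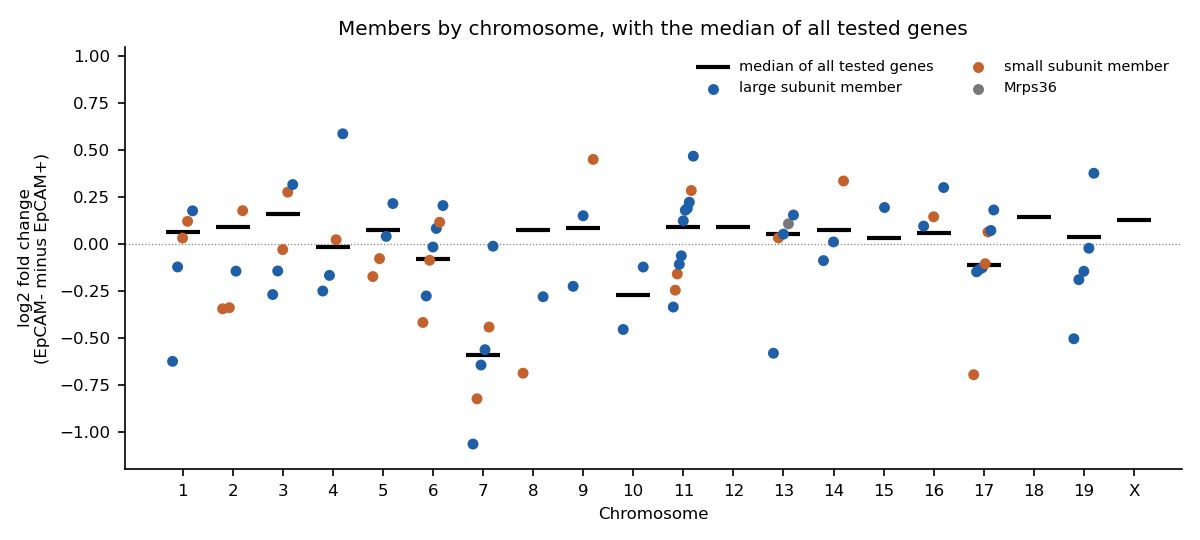
Log2 fold change (EpCAM- minus EpCAM+) of each member by chromosome, with a bar at the median of all tested genes of that chromosome. On chromosome 7 the bar stands at -0.59 and all 6 members lie below 0 (Mrpl23 only at -0.01), and no other bar lies below -0.27.

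The shift on chromosome 7 was seen in each EpCAM- library. Against the mean of the EpCAM+ libraries, all tested genes of chromosome 7 had medians of -0.43, -0.71 and -0.69 in EpCAM- replicates 1, 2 and 3, while genes of other chromosomes were at 0.04 in each. The 6 members on chromosome 7 followed at -0.31, -0.72 and -0.58. Members elsewhere were at 0.22, -0.21 and -0.09, where replicate 1 differs in sign from the others. The chromosome 7 shift was present along the chromosome, with medians of -0.27 to -0.76 in windows of 20 megabases. With no filter on low genes its median was -0.22. Its part in the calls of Mrpl46, Mrpl48 and Mrpl17 was not tested.

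Mrpl46 and Mrps11 lie head to head on chromosome 7, with RefSeq starts 42 bases apart. The 41 bases between them (chr7:78783090-78783130, GRCm38.p6, plus strand, on which Mrps11 is read) are printed because both genes start from this stretch. None of the motifs above occurs in these bases, but the longer window of Mrps11 counted above held AAGATGGC.
Mrpl46-Mrps11: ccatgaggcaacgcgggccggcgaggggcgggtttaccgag
Mrps11, of the small subunit's platform, was at 8.37, 8.48 and 8.24 in EpCAM+ and 8.28, 7.62 and 7.86 in EpCAM- libraries. The groups overlapped through EpCAM- replicate 1, and the change of -0.44 ± 0.20 did not pass (limma adjusted p = 0.109), although it did without that library (adjusted p = 0.0208). The counting is not stated to use strand, so reads where the 2 genes overlap could have been assigned to either.

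In all, 26 members had a neighbour on the opposite strand whose start lay within 1000 bases, facing away, with under 200 bases of overlap. Of the 26 neighbours, 3 were higher, 3 lower and 20 did not pass. Of all tested genes, 20.3% were called higher and 23.1% lower. Mrps12 was paired with Sars2, the mitochondrial seryl-tRNA synthetase, which fell from 7.92, 7.90 and 7.70 in EpCAM+ to 7.40, 6.70 and 6.75 in EpCAM- libraries, by 0.89 ± 0.23 on the log2 scale (limma adjusted p = 0.0174). Neighbours that rose did so beside members that did not pass: Ska3, a kinetochore gene, changed by 1.17 ± 0.21 (limma adjusted p = 0.00383) beside Mrpl57 at 0.01, and Eme1, a DNA repair nuclease gene, by 0.91 ± 0.22 (0.0145) beside Mrpl27 at -0.06. Ppp1r10 rose by 0.42 beside Mrps18b. Cyb5rl changed by -0.63 beside Mrpl37, and the other lower neighbour is Mrpl46 itself, beside Mrps11. Both Sars2 and Mrpl46 lie on chromosome 7, where 49.5% of tested genes were called lower.

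Mrpl23, another chromosome 7 gene, was the lowest member. Its log2 levels were 5.30, 4.74 and 5.99 in EpCAM+ and 5.79, 4.96 and 5.24 in EpCAM- libraries, so the groups overlapped fully, with a change of -0.01 ± 0.37. A processed pseudogene with a near-identical name, Mrpl23-ps1, on chromosome 2, was listed much higher, at 8.53, 8.59 and 8.68 in EpCAM+ and 7.89, 7.01 and 6.88 in EpCAM- libraries, a change of -1.34 ± 0.27 (limma adjusted p = 0.00708). The log2 of their summed back-transformed values was 8.75 ± 0.12 (SD, 3 EpCAM+ libraries) and 7.60 ± 0.51 (SD, 3 EpCAM- libraries), a difference of -1.15. Because the counting could have split reads between gene and pseudogene, the level and change of Mrpl23 are uncertain.

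The Mrps18 family has 3 members in the mouse, relatives of a single bacterial protein. The Mrps18c product takes that protein's place, Mrps18b sits elsewhere in the small subunit and Mrps18a in the large subunit, so those 2 were counted as mitochondria-specific. None passed: Mrps18a changed by -0.13 ± 0.12, Mrps18b by -0.11 ± 0.12 and Mrps18c by -0.17 ± 0.15, or by -0.22, -0.19 and -0.29 without EpCAM- replicate 1. Their EpCAM- replicate 1 values (9.36, 9.62 and 8.58) lay within or above the EpCAM+ range, and those of EpCAM- replicates 2 and 3 lay below it for all 3 genes. Mrps30, another protein of the large subunit despite its symbol, changed by 0.05 ± 0.15 and took the opposite sign (-0.06) without EpCAM- replicate 1. Mrps36, the dehydrogenase subunit, changed by 0.11 ± 0.16 and did not pass, and was at 0.00387 without EpCAM- replicate 1.

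Levels between genes were compared as log2 level per 1000 bases of the principal transcript, which is an approximation because the 3′ ends in use are not known. On this scale the highest large-subunit members were Mrpl33 (10.69), Mrpl52 (10.29) and Mrpl24 (10.15), and the lowest were Mrpl23 (5.87), Mrpl48 (6.34) and Mrpl47 (6.38). In the small subunit Mrps21 (10.68), Mrps6 (10.08) and Mrps18b (9.39) were highest and Mrps26 (6.59), Mrps25 (7.14) and Mrps17 (7.22) lowest. The smallest spread within groups was that of Mrps7, Mrps26 and Mrps35, with SDs of 0.068, 0.078 and 0.086. The largest was that of Mrps12, Mrpl23 and Mrpl54, with 0.569, 0.532 and 0.470. Mrpl54, for example, had 9.12, 8.41 and 7.82 in EpCAM- against 9.0, 8.74 and 8.98 in EpCAM+ libraries.

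The list of mitochondrial ribosome subunits without an Mrp symbol held 5 genes. All 5 were above 0, with a median of 0.35, and 1 passed: Dap3, a GTP-binding protein of the small subunit, rose by 0.35 ± 0.11 (limma adjusted p = 0.0418). Without EpCAM- replicate 1 the median was 0.25 and none of the 5 passed in limma (2 at an unadjusted p under 0.05). Of 26 genes for assembly of the ribosome and modification of its RNA, 2 rose and 3 fell, with a median of -0.14 (19.2% called, against 43.4% of all tested genes). Without EpCAM- replicate 1, 1 rose and 7 fell (3.85% and 26.9%, against 21.1% and 25.2% of all tested genes). Trub2, a pseudouridine synthase, changed by 0.54 ± 0.13 (limma adjusted p = 0.0133) and Ngrn, needed for the large-subunit RNA and located on chromosome 7, by -0.73 ± 0.13 (0.00401). Translation factors split evenly, with 2 of 15 higher and 2 lower (13.3% each, against 20.3% and 23.1%) and a median of -0.06. Without EpCAM- replicate 1, 2 were higher and 4 lower (13.3% and 26.7%, against 21.1% and 25.2%). Lrpprc, which stabilises mitochondrial messenger RNA, rose by 0.58 ± 0.09 (limma adjusted p = 0.00198), and Oxa1l, which inserts new proteins into the inner membrane, fell by 0.50.

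Mitochondrial aminoacyl-tRNA synthetases, which load amino acids onto transfer RNA, passed in 7 of 17 cases, all of them lower, with a median of -0.27. The share called, 41.2%, is near the 43.4% of all tested genes, and the share called lower stands against 23.1%. Ears2, the glutamyl-tRNA synthetase, had log2 levels of 7.92, 7.71 and 8.12 in EpCAM+ and 6.86, 6.46 and 6.21 in EpCAM- libraries. The change was -1.40 ± 0.22 (limma adjusted p = 0.00223), larger in size than that of any mitochondrial ribosomal protein gene. All 3 synthetase genes on chromosome 7 were lower, with a median of -0.89, and 4 of the other 14 were lower, with a median of -0.17. Among 10 genes of mitochondrial DNA upkeep and transcription 1 rose and 2 fell, Tfam, which packages mitochondrial DNA, by 0.59. The shares were 10% higher and 20% lower, against 20.3% and 23.1% of all tested genes. With EpCAM- replicate 1 left out, 2 of the 10 rose and 3 fell (20% and 30%, against 21.1% and 25.2%). Of 12 mitochondrial chaperones and proteases, only Lonp1, a matrix protease, passed with all libraries, at 0.44 (8.33% called, against 43.4%). With EpCAM- replicate 1 left out, 2 of the 12 rose and 1 fell (16.7% and 8.33%, against 21.1% and 25.2%).

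Transcripts made in the mitochondrion itself were lower. Of the 13 mitochondrially encoded messenger RNAs, 7 passed, all of them lower (53.8%, against 23.1% of all tested genes called lower), with a median of -0.43. Without EpCAM- replicate 1, 6 passed, all lower (46.2%, against 25.2%). As a share of the summed back-transformed values they made up 1.91, 1.79 and 1.91% in EpCAM+ and 0.954, 1.23 and 1.15% in EpCAM- libraries, with no overlap. EpCAM- replicate 1, where the ribosomal protein genes were highest, had the lowest share. mt-Co1 changed by -1.08 ± 0.30 (limma adjusted p = 0.0245) and mt-Co2 by -1.35 ± 0.21 (0.00229). The 2 ribosomal RNAs of the mitochondrial ribosome, mt-Rnr1 and mt-Rnr2, changed by -1.31 ± 0.62 (adjusted p of 0.133 in limma) and -0.82 ± 0.27 (0.0466), but the libraries were made from messenger RNA, which limits what these 2 values can show.

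Several nuclear regulators of mitochondrial genes differed, with 4 of 10 higher and 2 lower, against 20.3% and 23.1% of all tested genes. Gabpa, a subunit of the GA-binding protein, rose from 10.58, 10.81 and 10.30 in EpCAM+ to 11.50, 11.44 and 11.54 in EpCAM- libraries, by 0.93 ± 0.14 (limma adjusted p = 0.00188). Myc rose by 0.70 ± 0.19 (limma adjusted p = 0.0225). Ppargc1b, a coactivator of mitochondrial genes, was at 6.05, 5.87 and 6.40 in EpCAM+ and 3.34, 3.99 and 3.49 in EpCAM- libraries, a change of -2.50 ± 0.26 (limma adjusted p = 0.000319). Esrra, a nuclear receptor that works with it, changed by -1.0 ± 0.14 (limma adjusted p = 0.00139). In each of these 4 genes the groups were separate, and only the change of Ppargc1b exceeded that of Mrpl46.

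Cytosolic ribosomal protein genes gave a further reference. Of 81 tested, 24 passed, all of them lower (29.6%, against 23.1% of all tested genes called lower), with a median of -0.25. With EpCAM- replicate 1 left out, 48 were lower (59.3%, against 25.2% of all tested genes in that setting) and the median was -0.39. All 14 on chromosome 7 fell, with a median of -0.86, and 10 of the other 67 did, with a median of -0.21. The nuclear-encoded respiratory chain subunits, many of them partners of the proteins made by the mitochondrial ribosome, had 2 of 80 higher and 8 lower. These are 2.5% and 10%, against 20.3% and 23.1% of all tested genes, with a median of -0.11. Without EpCAM- replicate 1, 2 were higher and 32 lower, with a median of -0.25. The shares were then 2.5% and 40%, against 21.1% and 25.2%. On chromosome 7, 4 of its 6 were lower, with a median of -0.91, and elsewhere 4 of 74 were lower and 2 higher. The members of the mitochondrial ribosome thus lay nearer to 0 than the mitochondrial messenger RNAs and the cytosolic ribosomal proteins, a difference between lists that was not tested.

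**Figure D5:**
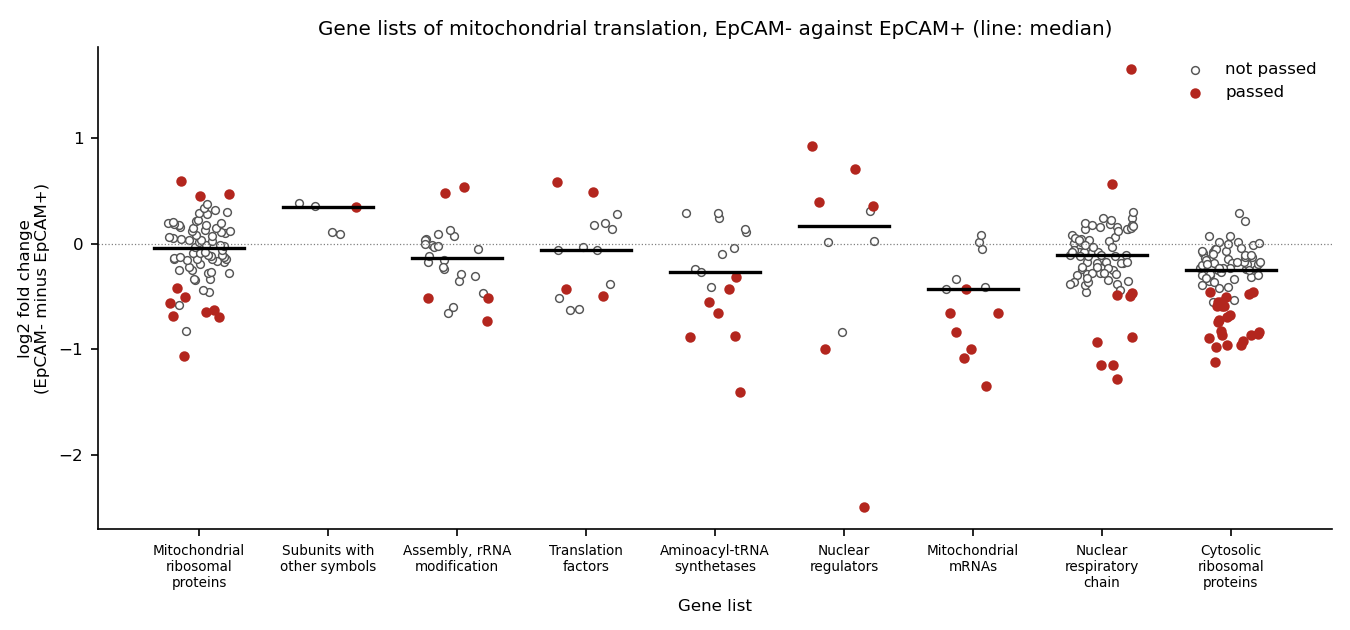
Log2 fold change (EpCAM- minus EpCAM+) of each tested gene in 9 lists, with a line at the list's median. Filled points passed the test. The medians run from -0.43 for the mitochondrial messenger RNAs to 0.35 for the subunits with other symbols, and the mitochondrial ribosomal proteins lie at -0.05.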

How the data were processed

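RNA of sorted cells was sequenced in 6 libraries, 3 EpCAM+ and 3 EpCAM-, described as biological replicates. The deposited values are log2 levels that the authors normalised between libraries. The submitters' processing notes name STAR 2.5.2, RSEM, DESeq2 1.24.0 and GRCm38, without roles, and the transform and annotation are not given in the sources used here. Depth per library is therefore unknown, and no counting interval is given. An unstated transform that shrinks low values would shrink low genes' fold changes.

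GENCODE M21 (GRCm38) gave a symbol for 25831 identifiers and none for 147. EpCAM- was tested against EpCAM+ with limma 3.58.1 (trend, R 4.3.3) on genes with a mean back-transformed level of at least 10, with Benjamini-Hochberg adjustment and a threshold of 0.05, after the procedure was tested on simulated data. Shares are of summed back-transformed levels. Alternatives were added values of 0.5, 1 and 5, no filter or one at 50, 3 further scalings, a replicate block, array weights and left-out libraries. Promoter windows are RefSeq's (GRCm38.p6).

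Members and lists were chosen with earlier results of these data known. The rule named members that passed with a log2 change of at least 0.5, the highest and lowest per length, the most and least variable, the Mrps18 family, Mrps36, up to 4 genes per other list and mitochondrial transcripts. Mrps22, Mrpl45, Mrps5, Mrps11, Mrps30, Mrpl10, Mrpl12, Mrpl36, Mrpl49, Mrpl58, the divergent neighbours and the members called only without EpCAM- replicate 1 fall outside it, picked once their values had been seen. One allele of the mice is not reported here.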

Additional observations from a re-analysis of the deposited data

How the results depend on the processing

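The median log2 fold change of the members (-0.05) ran from -0.16 without EpCAM- replicate 1 to 0.03 without EpCAM- replicate 2 with 1 library left out, was -0.16 without both replicate 1 libraries and took the opposite sign (0.09) with quantile normalization. Each move was less than 0.153, the pooled within-group SD of the members' median level in single libraries. That SD is not an error of the fold change, so it does not show these moves to be small. It includes EpCAM- replicate 1 (9.35, against 8.97 and 9.02 in EpCAM- replicates 2 and 3). The counts of 3 members higher and 8 lower depended more on the settings. Higher members numbered 5 with a filter at a mean of 50, 6 with upper-quartile scaling and 8 with quantile normalization (against 6 lower), which moved the median of all genes to 0.13. Among the calls, 27.3% were higher, against 33.3% with the trimmed mean of M values or an added value of 5, 38.5%, 42.9% and 57.1% in the 3 settings just named. Array weights gave 14 lower members and called 50.7% of all tested genes, against 43.4% in the main fit. Quantile normalization called 47.2% of all tested genes, upper-quartile scaling 44.4%, and the filter at 50 called 46.8% of its smaller set. Leaving out 1 library, or EpCAM+ replicate 1 with EpCAM- replicate 3, gave 0 to 4 higher and 1 to 18 lower. In these settings 27.7 to 46.3% of all tested genes were called. The counts of 0 higher came without EpCAM+ replicate 3 (3 lower, 11 members at an unadjusted p under 0.05) and without that pair (1 lower, 7 unadjusted). Without both replicate 1 libraries, an alternative chosen after seeing the data, 1 was higher and 7 lower. Mrpl23 took a positive sign with upper-quartile scaling (0.0244) and quantile normalization (0.34), and ran from -0.31 to 0.31 with libraries left out. Mrps30 ran from -0.0632 to 0.20 with libraries left out, and was at -0.0467 without both replicate 1 libraries. The causes were not tested. Of the other values of named members, 501 kept their direction and side of the threshold, 43 lost the threshold and 23 gained it. Fitting the replicate number as a block gave 4 higher and 10 lower members and lost none of the 11. The pairing is not given by the labels, and deviations of same-numbered libraries from their group means correlated across genes at 0.410, 0.044 and 0.165, so the numbers were not taken to pair the libraries, and EpCAM+ replicate 2 and EpCAM- replicates 2 and 3 did not correlate best with their own number.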
